A study of Saccharomyces cerevisiae with 5 samples.

Results

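The minus-side flanks of the late-inefficient origins ARS313 and ARS316 were described in chromatin rings that were cut out of yeast chromosome III by recombination and methylated as single molecules. A flank is the stretch between the nucleosome-free region (NFR) of the origin and the end of the ring on the minus side. It was taken as positions 631 to 1036 of the ARS313 ring and positions 1 to 540 of the ARS316 ring. These positions were chosen with earlier results of these data known. The 2 flanks hold 406 and 540 positions, which are 946 of the 4597 positions of the 4 rings, and 31 of 152 complete windows of 30 bp. The windows that touch the 60 positions at the ring end were kept apart as the junction, where recombination joined the ring. This left 11 inner windows at ARS313 and 16 at ARS316.

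Data of 5 libraries were used. The deletions isw2Δ (isw2Δ::ura3) and ies6Δ (ies6Δ::his) were sequenced in 2 libraries each, and 1 wildtype library, which carries the number 2, was used here, so that wildtype values have no replicate check. All strains, wildtype included, are MATa ura3Δ0 leu2Δ0 his3Δ1 met15Δ0 bar1::kanMX4. They carry recombination (RS) sites and LexA sites beyond the third nucleosome on either side of an origin, and on Chr I a LexA-TAP fusion under pTEF2 and the R recombinase under pGAL1-10. Cells were arrested in G1 with α-factor while 2% galactose induced the recombination. Each library pools 4 strains, 1 for each origin, so a ring comes from a single strain per genotype. The study describes its replicates as biological, and the labels do not say how the cultures of the 2 libraries of a genotype were separated. The p-values measure the spread between these libraries only.

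Yeast origins lie in a nucleosome-free region flanked by arrays of nucleosomes. DNA wrapped around a histone octamer is shielded from methyltransferases, whereas the linker between neighbouring nucleosomes is open to them. Isw2 is the catalytic subunit of a remodeler of the ISWI family that slides nucleosomes and sets their spacing. Ies6 belongs to INO80, a remodeling complex that also positions and spaces nucleosomes next to nucleosome-free regions.

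Chromatin was methylated in vitro with EcoGII at adenines and with M.CviPI and M.SssI at cytosines of GpC and CpG, and read on Nanopore flow cells. Every position of a ring was called on only 1 strand. The ARS313 flank held 235 positions that only forward reads reported and 171 that only reverse reads reported, and the ARS316 flank 272 and 268. The normalized methylation level is the share of methylated calls divided by the mean of a nucleosomal array that was added to the same library. A level of 1 is therefore the mean of that array, and the level is the measure of accessibility. A library in which adenine methylation or its calling was less efficient than cytosine methylation would also differ in this level, and in wildtype, with a single library, this cannot be told apart from accessibility.

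Depth differed between the rings. For ARS313, isw2Δ and ies6Δ libraries each held 780 forward and 780 reverse reads, and wildtype held 493 and 492. For ARS316, the isw2Δ libraries also held 780 and 780 reads, whereas ies6Δ held 83 and 93 reads in replicate 1 and 575 reads of both strands in replicate 2, and wildtype held 819 and 780. The nucleosomal array was methylated at 12.2 and 11.8% in isw2Δ, at 10.2 and 9.02% in ies6Δ and at 6.96% in wildtype. No read of the 4 rings was identical between libraries.

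Parts of the ARS313 flank could be identified by sequence. The tables hold no base letters, but a position reported by forward reads is A or C, and T or G where it is reported by reverse reads. Of 32 oligonucleotides of the study that name ARS313 or ARS316, 15 could be placed on a ring by this pattern, and 5 of them lie in the ARS313 flank and cover 110 positions. They are shown because they mark where the study expected the borders between nucleosomes, and because their letters tell which methyltransferase could act. Each is printed in the direction of the ring on chromosome III, and capitals mark bases inside a linker measured here.
#0553, positions 635 to 657: gtgctaccttttaagacggaaga
#0322, positions 721 to 744: ggagataaaagcgcctacagttag
#0346, positions 745 to 769: ccatCTATTACCCTTTTTATCGGTC
#0332, positions 887 to 904: CCAACTTCTTGCACCaag
#0350, positions 905 to 924: ggaataatgatgattgctga
The stretches #0322 and #0346 abut at 744 and 745, the border designed for a smaller ring that ends after the first minus-side nucleosome. The stretches #0332 and #0350 abut at 904 and 905, the border designed for a ring that ends after the second minus-side nucleosome. No stretch could be placed in the ARS316 flank.

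Both flanks were more methylated in the mutants than in wildtype. The ARS313 flank (631 to 976, junction left out) had mean levels of 0.989 and 0.930 in isw2Δ, 0.965 and 0.850 in ies6Δ and 0.758 in wildtype. The ARS316 flank (61 to 540) had levels of 1.20 and 1.25 in isw2Δ, 1.15 and 1.10 in ies6Δ and 0.975 in wildtype. All 4 mutant libraries lay above the wildtype library in both flanks. Of the 20 arms and ring ends of the 4 rings, the libraries of isw2Δ and wildtype did not overlap in 95%, and those of ies6Δ and wildtype in 75%.

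The gain passed the test in isw2Δ and not in ies6Δ. On the log2 scale, isw2Δ exceeded wildtype by 0.34 at ARS313 (SE 0.109, limma, adjusted p = 0.0202) and by 0.33 at ARS316 (SE 0.0995, limma, adjusted p = 0.016). In ies6Δ, the differences were 0.26 (limma, adjusted p = 0.0813) and 0.21 (limma, adjusted p = 0.124). The mutants themselves differed by 0.08 and 0.12 (isw2Δ minus ies6Δ, limma, adjusted p = 0.571 and 0.389). Among the 20 arms and ring ends, 45% were called in isw2Δ (40% higher) and 35% in ies6Δ (30% higher), and limma called 0 between the mutants, with unadjusted p = 0.373 and 0.156 in the 2 flanks. The isw2Δ calls rested on both libraries. Without isw2Δ replicate 1, the adjusted p was 0.154 at ARS313 and 0.0798 at ARS316, and without isw2Δ replicate 2 it was 0.0696 and 0.134. In ies6Δ, both flanks passed without replicate 2, with differences of 0.35 (adjusted p = 0.0092) and 0.24 (adjusted p = 0.049).

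A difference shared by all rings has to be read beside these values. Over the 27 inner flank windows the median change was 0.38 in isw2Δ and 0.21 in ies6Δ, and over all 152 windows it was 0.31 and 0.21. Divided by the median of its own windows, a scaling added after the data were seen, the mean flank differed by 0.03 and 0.02 in isw2Δ and by 0.06 and 0.01 in ies6Δ (ARS313 and ARS316 in this order), and none of these passed the test. The gain of the flanks over wildtype thus had about the size of the shift of the whole library relative to the array. The array itself was the least methylated in wildtype, and the part of this in the result was not tested.

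**Figure D1:**
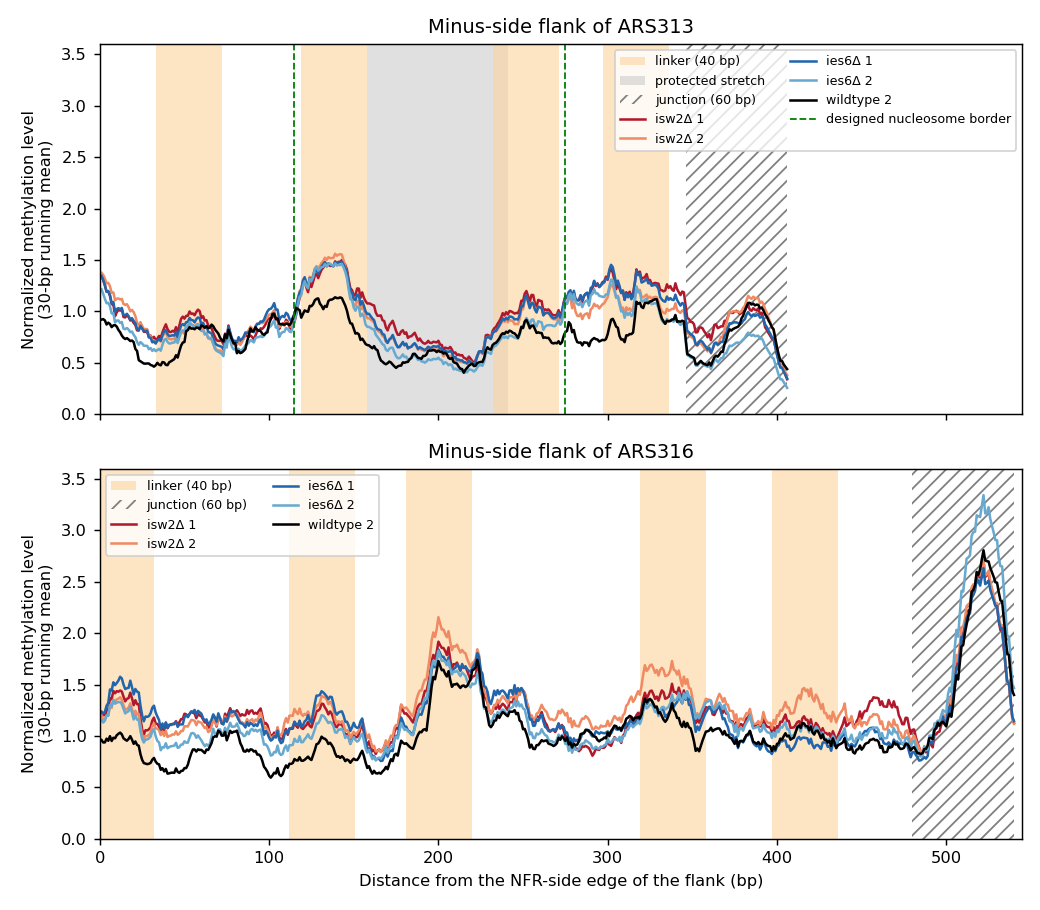
Running mean (30 bp) of the normalized methylation level in each library along the ARS313 and the ARS316 flank, with distance in bp from the flank edge next to the NFR on the x axis and 1 line per library. The strongest linker of ARS316, with its apex at 341 in the mutants and at 318 in wildtype, reaches 1.92 and 2.16 in isw2Δ, 1.84 and 1.83 in ies6Δ and 1.74 in wildtype, and the minimum of the ARS313 flank lies between 0.402 and 0.501 in all libraries.

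The 2 flanks differed in their relief. The ARS313 flank had 4 linkers, whose apexes lay at 683, 769, 882 and 947, and 1 protected stretch of at least 50 bp below the median of the arm, from 788 to 871. The ARS316 flank had 5 linkers, at 125, 203, 341, 410 and 529, and no protected stretch of that length. Linkers are local maxima of the running mean averaged over the 3 genotypes, and their level was taken over the 40 bp around the apex. Neighbouring apexes in the flanks were 65 to 113 bp apart at ARS313, and 69 to 138 bp apart at ARS316. These distances are shorter than the DNA of a full nucleosome. Neighbouring apexes therefore need not flank a nucleosome, and linker is used here as a name for a local maximum.

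The ratio of the highest to the lowest running mean was 2.99 and 3.25 in isw2Δ, 3.11 and 3.65 in ies6Δ and 2.82 in wildtype at ARS313. At ARS316 it was 2.37 and 2.56 in isw2Δ, 2.434 and 2.399 in ies6Δ and 2.93 in wildtype. All 4 mutant libraries thus lay above wildtype at ARS313 and below it at ARS316. They also lay below it in the minus-side flanks of ARS305 (3.57 and 3.77 in isw2Δ, 3.57 and 3.74 in ies6Δ, 5.05 in wildtype) and ARS315 (4.13 and 4.61, 3.54 and 3.57, 4.81). The ratio rests on 2 extreme points. The SD over the mean of the ARS313 flank was 0.243 and 0.262 in isw2Δ, 0.261 and 0.305 in ies6Δ and 0.243 in wildtype. These ratios were not tested.

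At ARS313, the linker nearest to the NFR (663 to 702, apex 53 bp from the flank edge) was the weakest. Its level was 0.910 and 0.798 in isw2Δ, 0.858 and 0.781 in ies6Δ and 0.705 in wildtype. All mutant libraries were higher, but the differences of 0.27 in isw2Δ and 0.22 in ies6Δ did not pass the test (limma, adjusted p = 0.0916 and 0.238).

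The linker from 749 to 788 was the strongest in both mutants and in wildtype. It covers 21 of the 25 bases of the stretch #0346, and its apex lies 24 bp beyond the inner designed border. Its level was 1.32 and 1.34 in isw2Δ, 1.30 and 1.29 in ies6Δ and 0.986 in wildtype. Replicates of a genotype nearly coincided, and the linker was higher by 0.43 in isw2Δ and by 0.39 in ies6Δ (SE 0.144, limma, adjusted p = 0.0106 and 0.0197).

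The protected stretch from 788 to 871 followed. Its level was 0.749 and 0.677 in isw2Δ, 0.689 and 0.565 in ies6Δ and 0.556 in wildtype. Its minimum, at 845, was the least methylated point of the flank in the average of the genotypes. It was higher by 0.36 in isw2Δ (limma, adjusted p = 0.0326), whereas the difference in ies6Δ was 0.17 (limma, adjusted p = 0.381).

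The last 2 linkers of ARS313 lie on either side of the outer designed border in the average of the genotypes. At 862 to 901, the level was 1.03 and 1.01 in isw2Δ, 1.01 and 0.836 in ies6Δ and 0.833 in wildtype, and neither difference passed the test (0.30 and 0.14). At 927 to 966, it was 1.31 and 1.12 in isw2Δ, 1.28 and 1.11 in ies6Δ and 0.968 in wildtype, with 0.33 in isw2Δ (limma, adjusted p = 0.0489) and 0.30 in ies6Δ (limma, adjusted p = 0.0938). The apex of this linker lay at 932 in all 4 mutant libraries and at 959 in wildtype, a distance of 27 bp that was not tested. That of the linker at 882 lay at 882 in both isw2Δ libraries and in wildtype. In both ies6Δ libraries, the highest point within 30 bp of 882 was at 908, beyond the border, with 1.206 and 1.175. It was lower than the apex at 932 in the same libraries (1.453 and 1.309), and nearer to it than the least spacing set for linkers. Whether 908 is an apex of its own or the side of the peak at 932 was not tested.

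In the average of the genotypes, the outer designed border fell near the shallow minimum between these linkers, which was at 902. Over the 40 bp around the border the level was 1.10 and 1.03 in isw2Δ, 1.11 and 1.06 in ies6Δ and 0.787 in wildtype. Around the inner designed border it was 1.18 and 1.26 in isw2Δ, 1.23 and 1.15 in ies6Δ and 1.04 in wildtype.

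At ARS316, the linkers are given from the NFR outwards. The linker at 529 (509 to 548) reaches 8 bp past the flank edge. Its level was 1.30 and 1.27 in isw2Δ, 1.39 and 1.23 in ies6Δ and 0.956 in wildtype. It was higher in both mutants, by 0.43 in isw2Δ and by 0.45 in ies6Δ (limma, adjusted p = 0.0106 and 0.00949).

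The linker at 410 (390 to 429) had levels of 1.18 and 1.25 in isw2Δ, 1.28 and 1.07 in ies6Δ and 0.870 in wildtype. It showed the largest change of all flank segments in isw2Δ, 0.48 (limma, adjusted p = 0.00405), and was also higher in ies6Δ, by 0.43 (limma, adjusted p = 0.0133). Its apex lay at 410 in all 5 libraries.

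The linker at 341 (321 to 360) was the most accessible of the flank, with 1.68 and 1.86 in isw2Δ, 1.62 and 1.59 in ies6Δ and 1.46 in wildtype. Neither mutant passed the test here (0.27 and 0.14, limma, adjusted p = 0.0948 and 0.468). Its apex, the highest point within 30 bp of 341, lay at 341 in all 4 mutant libraries and at 318 in the single wildtype library. This difference was not tested.

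Farther out, the linker at 203 (183 to 222) had levels of 1.39 and 1.57 in isw2Δ, 1.30 and 1.33 in ies6Δ and 1.18 in wildtype. It was higher in isw2Δ (0.33, limma, adjusted p = 0.0489) and differed by 0.16 in ies6Δ (limma, adjusted p = 0.393). The outermost linker at 125 (105 to 144) had 1.14 and 1.35 in isw2Δ, 0.947 and 1.06 in ies6Δ and 1.03 in wildtype. It was the only flank segment in which ies6Δ lay on both sides of wildtype, with differences of 0.26 in isw2Δ and -0.05 in ies6Δ that did not pass the test.

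**Figure D2:**
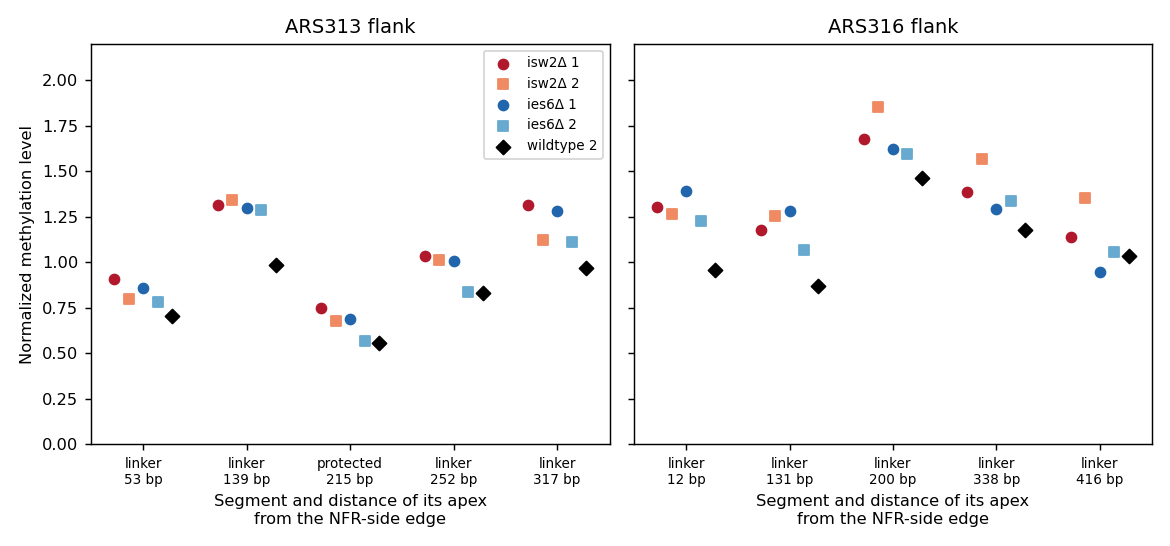
Normalized methylation level (y axis) of the 9 linkers and the protected stretch of both flanks, 1 point per library, with the segments ordered by the distance of their apex from the flank edge next to the NFR. The 2 isw2Δ points lie above the wildtype point in all 10 segments, and the ies6Δ points do so in all but the linker of ARS316 from 105 to 144.

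In all, 6 of the 10 flank segments were called higher in isw2Δ and 3 in ies6Δ, and none was called lower. Over the 52 segments of the 4 rings, 51.9% were called in isw2Δ (50% higher) and 40.4% in ies6Δ (36.5% higher), so the shares of the flank segments, 60% and 30%, were near this background. The libraries did not overlap with wildtype in 10 of the 10 segments for isw2Δ and in 9 for ies6Δ (88.5% and 82.7% of the 52). Between isw2Δ and ies6Δ, limma called 0 of the 10 (11.5% of the 52), and 1 had an unadjusted p below 0.05. The counts depended on single libraries. In isw2Δ, 2 segments were called without isw2Δ replicate 1 and 3 without either ies6Δ library, and in ies6Δ, 0 were called without ies6Δ replicate 1 or 2. The linker of ARS316 at 410 in isw2Δ was the only segment call that held whichever mutant library was left out.

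In windows of 30 bp, 16 of the 27 inner flank windows were higher in isw2Δ and 8 in ies6Δ (limma, adjusted p below 0.05), and none was lower. Among all 152 windows, 50.7% were called in isw2Δ (46.1% higher) and 34.9% in ies6Δ (30.9% higher). The flank shares of 59.3% and 29.6% are to be read against these, and the ies6Δ share was no higher than that of the rings as a whole. ARS313 contributed 7 and 4 of its 11 windows, and ARS316 9 and 4 of its 16. The 8 windows called in ies6Δ were all among the 16 called in isw2Δ, but both comparisons use the same wildtype library. Libraries did not overlap with wildtype in 24 of the 27 windows for isw2Δ and in 21 for ies6Δ, against 90.1% and 80.3% of all windows. Between the mutants, limma called 0 of the 27 windows (5.26% of the 152), and 2 had an unadjusted p below 0.05. In isw2Δ, 9 windows were called without isw2Δ replicate 1 and 8 without isw2Δ replicate 2, and in ies6Δ, 3 were called without ies6Δ replicate 1. With each library divided by the median of its windows, 0 of the 27 were called in isw2Δ and 1 in ies6Δ. In the minus-side flanks of the early-efficient origins ARS305 and ARS315, 8 of 28 inner windows were called higher and 1 lower in isw2Δ, and 7 higher and 1 lower in ies6Δ. The difference between these shares was not tested.

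**Figure D3:**
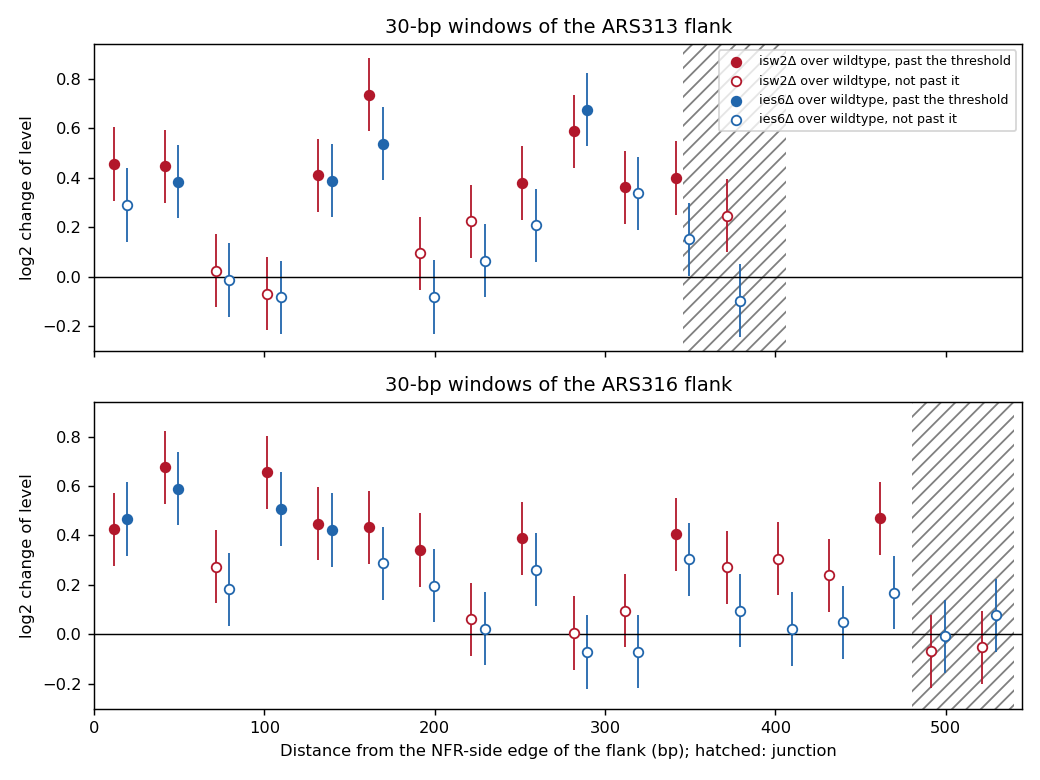
Log2 change of each 30-bp window of the 2 flanks in isw2Δ and ies6Δ against wildtype (y axis), plotted by distance from the flank edge next to the NFR, with filled points for an adjusted p below 0.05 in limma. The inner windows range between -0.07 and 0.74 in isw2Δ and between -0.08 and 0.68 in ies6Δ.

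The change differed in size between the windows of each flank, and differences between windows were not tested. The windows below were picked for their values, which include the shift shared by all rings. With each library divided by the median of its windows, 0 of the 27 inner windows were called in isw2Δ and 1 in ies6Δ. The largest change at ARS313 in isw2Δ fell in positions 781 to 810, the NFR-side shoulder of the protected stretch. The level there was 0.961 and 0.790 in isw2Δ, 0.815 and 0.706 in ies6Δ and 0.523 in wildtype, with differences of 0.74 in isw2Δ (SE 0.148, limma, adjusted p = 2.18e-05) and 0.54 in ies6Δ (limma, adjusted p = 0.00188). In the next window, 811 to 840, the differences were 0.09 and -0.08.

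The largest change at ARS313 in ies6Δ was in positions 901 to 930, which hold the stretch #0350 beyond the outer designed border. The level was 1.15 and 0.964 in isw2Δ, 1.15 and 1.08 in ies6Δ and 0.700 in wildtype. The window was higher by 0.68 in ies6Δ (limma, adjusted p = 8.81e-05) and by 0.59 in isw2Δ (limma, adjusted p = 0.000572). All mutant libraries were at or near the level of the array, and wildtype was well below it.

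In the windows from 691 to 720 and 721 to 750 of ARS313, the mean level was near that of wildtype. The first had 0.863 and 0.807 in isw2Δ, 0.855 and 0.773 in ies6Δ and 0.820 in wildtype. The second, which holds the stretch #0322, had 0.829 and 0.846 in isw2Δ, 0.916 and 0.751 in ies6Δ and 0.879 in wildtype. The differences lay between -0.08 and 0.03 and did not pass the test, although the strongest linker starts in the second window. A flat mean can hide opposite differences by base. At the 13 A or T positions of #0322 the level was 1.33 and 1.18 in isw2Δ, 1.31 and 0.963 in ies6Δ and 0.590 in wildtype. At its 4 CpG or GpC positions it was 0.411 and 0.862 in isw2Δ, 0.731 and 0.792 in ies6Δ and 2.14 in wildtype. The part of this in the mean was not tested.

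At ARS316, both mutants changed most in positions 481 to 510, on the outer side of the linker at 529. The level was 1.14 and 1.04 in isw2Δ, 1.14 and 0.933 in ies6Δ and 0.684 in wildtype, with differences of 0.68 in isw2Δ (limma, adjusted p = 8.18e-05) and 0.59 in ies6Δ (limma, adjusted p = 0.000603). The window from 421 to 450 was also called higher, by 0.66 in isw2Δ and by 0.51 in ies6Δ, whereas the window between them, 451 to 480, differed by 0.27 and 0.18 and did not pass the test (limma, adjusted p = 0.113 and 0.356). All 3 windows lie between the linkers at 410 and 529, where wildtype reached the lowest running mean of this flank, 0.595 at 440.

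The 2 windows over the strongest linker of ARS316 differed in their calls. The window that ends at 330 had levels of 1.51 and 1.63 in isw2Δ, 1.63 and 1.43 in ies6Δ and 1.51 in wildtype, with differences of 0.06 and 0.02. Positions 331 to 360 had 1.60 and 1.78 in isw2Δ, 1.50 and 1.55 in ies6Δ and 1.33 in wildtype, and were called higher in isw2Δ (0.34, limma, adjusted p = 0.0427). The wildtype apex at 318 and the mutant apex at 341, a difference that was not tested, fall in these 2 windows.

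The junction windows were not like the inner flank. Positions 1 to 30 of ARS316 were the most methylated of the flank, with levels of 2.59 and 2.61 in isw2Δ, 2.51 and 3.22 in ies6Δ and 2.70 in wildtype, and no difference passed the test. Of the 4 junction windows, only positions 961 to 990 of ARS313 were called, in isw2Δ (0.40, limma, adjusted p = 0.0174). The ARS313 ring end (977 to 1036) had levels of 0.858 and 0.850 in isw2Δ, 0.781 and 0.593 in ies6Δ and 0.762 in wildtype.

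Ratios within a ring do not depend on the array. They can still differ with the share of each base in the parts compared, and its part in them was not tested. The minus side of ARS313 relative to its plus side was 0.818 and 0.686 in isw2Δ, 0.764 and 0.762 in ies6Δ and 0.720 in wildtype. At ARS316 this ratio was 0.847 and 0.870 in isw2Δ, 0.801 and 0.739 in ies6Δ and 0.892 in wildtype. No change of the minus side relative to the plus side passed the test at ARS313 or ARS316 in either mutant (limma, adjusted p = 0.176 to 0.685). In the same fit, ies6Δ was called lower at ARS305 (-0.39, limma, adjusted p = 0.0212) and higher at ARS315 (0.52, limma, adjusted p = 0.00517).

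Relative to the centre of the ring, the ARS313 flank was lower in both mutants. The ratio was 0.380 and 0.399 in isw2Δ, 0.385 and 0.316 in ies6Δ and 0.527 in wildtype, a log2 difference of -0.44 in isw2Δ (SE 0.134, limma, adjusted p = 0.0391) and -0.60 in ies6Δ (limma, adjusted p = 0.00326). The levels behind it were 2.61 and 2.33 in isw2Δ, 2.51 and 2.69 in ies6Δ and 1.44 in wildtype for the centre, so that the excess over wildtype was smaller in the flank than in the centre. At ARS316 the ratio to the centre was 0.593 and 0.614 in isw2Δ, 0.615 and 0.522 in ies6Δ and 0.638 in wildtype, and did not pass the test. Only 8 ratios share the spread of this fit. The isw2Δ call was lost without isw2Δ replicate 1 (-0.40) and without isw2Δ replicate 2 (-0.47), and the ies6Δ call without either isw2Δ library. A lower ratio to the centre was not particular to ARS313. At the early-efficient origin ARS305 it was also called lower in ies6Δ (-0.45, limma, adjusted p = 0.0109). In isw2Δ the difference there was -0.27 and did not pass the test. At ARS315 the differences were 0.23 in isw2Δ and 0.26 in ies6Δ, and neither passed the test.

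**Figure D4:**
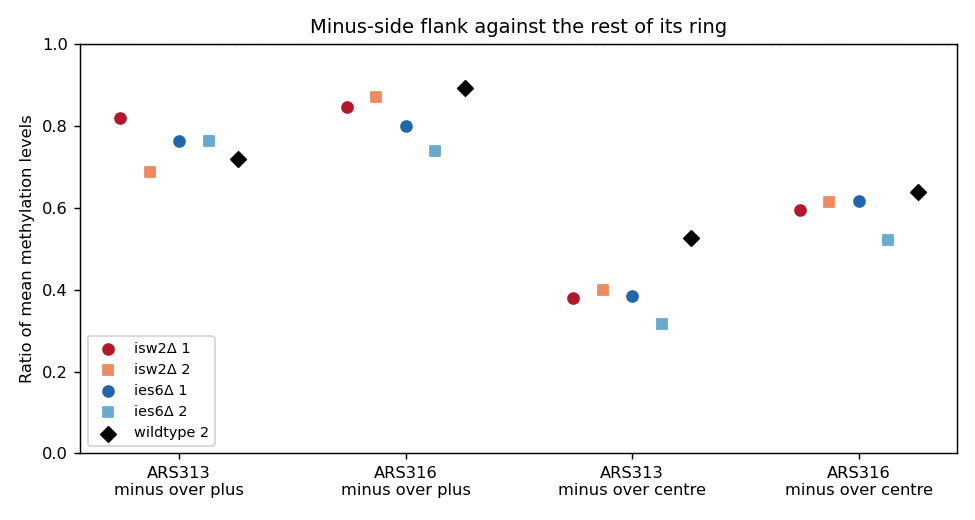
Ratio of the mean level of the minus-side flank to that of the plus side and of the centre of the same ring at ARS313 and ARS316 (y axis), 1 point per library. The ARS313 flank reaches 0.380 and 0.399 of its centre in isw2Δ, 0.385 and 0.316 in ies6Δ and 0.527 in wildtype, whereas no difference in the other ratios passed the test.

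The share of each base in a window bears on these levels, because adenines and cytosines were marked by different enzymes. At the 63 placed A or T positions of the ARS313 flank, 20.5 and 18.9% of calls were methylated in isw2Δ, 16.9 and 13.4% in ies6Δ and 6.59% in wildtype. At the 14 placed C or G positions in CpG or GpC, 5.42 and 9.08% were methylated in isw2Δ, 6.64 and 7.20% in ies6Δ and 10.3% in wildtype. The mutants were thus all higher than wildtype at A or T and all lower at CpG or GpC.

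The same order held after division by the array. At A or T the level was 1.67 and 1.60 in isw2Δ, 1.65 and 1.49 in ies6Δ and 0.947 in wildtype, whereas at CpG or GpC it was 0.443 and 0.768 in isw2Δ, 0.650 and 0.798 in ies6Δ and 1.48 in wildtype. The 25 other C or G positions, which none of the enzymes should mark, were called methylated at 1.69 and 3.30% in isw2Δ, 2.14 and 1.97% in ies6Δ and 2.90% in wildtype.

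Stretch by stretch, the order at A or T recurred, but that at CpG or GpC did not everywhere. The stretch #0322 contains gcgc. Its 4 CpG or GpC positions were methylated at 5.03 and 10.2% in isw2Δ, 7.47 and 7.15% in ies6Δ and 14.9% in wildtype, and its 13 A or T positions at 16.3 and 13.9% in isw2Δ, 13.4 and 8.69% in ies6Δ and 4.11% in wildtype. As a whole, #0322 had a level of 0.847 and 0.869 in isw2Δ, 0.918 and 0.726 in ies6Δ and 0.880 in wildtype. At the 2 CpG or GpC positions of #0332, 1.09 and 3.53% were methylated in isw2Δ, 1.60 and 3.14% in ies6Δ and 2.03% in wildtype. At the 2 of #0350, 8.78 and 13.8% were methylated in isw2Δ, 10.1 and 13.0% in ies6Δ and 11.7% in wildtype, so wildtype lay among the mutant libraries in both stretches. As a whole, #0350, positions 905 to 924, had 1.20 and 1.01 in isw2Δ, 1.22 and 1.20 in ies6Δ and 0.779 in wildtype.

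The split was not particular to the flank. At 132 placed A or T positions elsewhere on the 2 rings, 24.5 and 24.5% were methylated in isw2Δ, 19.9 and 16.9% in ies6Δ and 9.61% in wildtype, and at 29 CpG or GpC positions 5.24 and 6.88% in isw2Δ, 5.59 and 5.63% in ies6Δ and 11.1% in wildtype. Its part in the changes of windows, linkers and within-ring ratios was not tested, since most bases of the flanks are not known here.

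**Figure D5:**
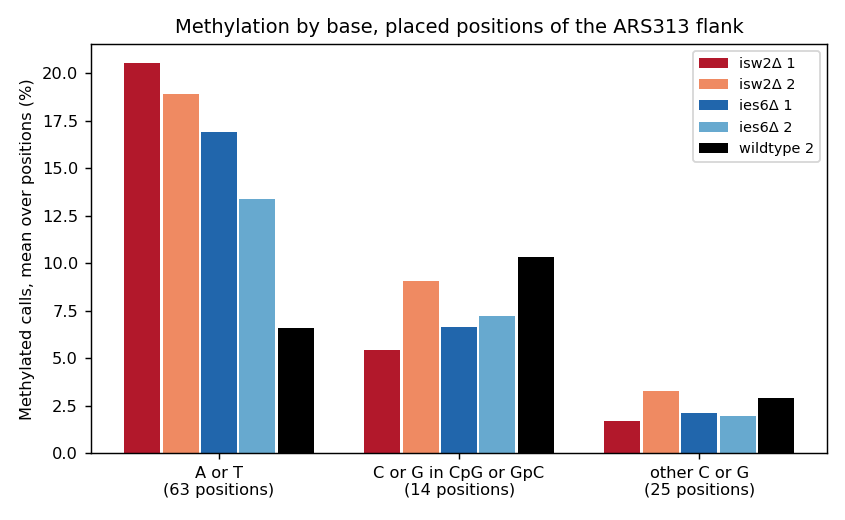
Mean percentage of methylated calls (y axis, from 0) at placed positions of the ARS313 flank, by base class and library. At A or T the bars reach 20.5 and 18.9% in isw2Δ, 16.9 and 13.4% in ies6Δ and 6.59% in wildtype, and at CpG or GpC the wildtype bar is the highest, at 10.3%.

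Single molecules were then compared by the share of them with a methylated call, without normalization. This share includes molecules with false calls only. Reads of a library are not replicates, forward and reverse reads are different molecules that see different bases, and the Wilson intervals (95%) cover counting error only. In the strongest ARS313 linker (749 to 788), 65.4 and 63.1% of forward molecules carried at least 1 methylated call in isw2Δ, 57.1 and 51.8% in ies6Δ and 39.8% in wildtype. Among reverse molecules the shares were 77.6 and 76.8% in isw2Δ, 68.5 and 67.8% in ies6Δ and 50% in wildtype. The wildtype shares had intervals of 35.5 to 44.1% and 45.6 to 54.4%. In the ARS316 linker at 410 they were 61.3 and 64.5% of forward molecules in isw2Δ, 56.6 and 47.5% in ies6Δ and 35.9% in wildtype, and the widest interval, 45.9 to 66.8%, was that of the 83 molecules of ies6Δ replicate 1. The order of the genotypes was the same as that of the total methylation of the libraries.

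Over the whole flank of ARS313, the median forward molecule was methylated at 7.80 and 5.85% of its called positions in isw2Δ, 5.37 and 3.90% in ies6Δ and 1.95% in wildtype. Its longest stretch without a call spanned 112 and 134 bp in isw2Δ, 142 and 151.5 bp in ies6Δ and 197 bp in wildtype. At ARS316, the longest stretch on forward molecules was 107 and 105 bp in isw2Δ, 133 and 140 bp in ies6Δ and 176 bp in wildtype. Of the forward ARS313 molecules, 1.92 and 2.69% carried no call in the flank in isw2Δ, 3.59 and 4.74% in ies6Δ and 13.6% in wildtype (67 of 493, 10.8 to 16.9%). On reverse ARS313 molecules the shares were 0.385 and 0% in isw2Δ, 1.79 and 1.54% in ies6Δ and 3.46% in wildtype. On forward ARS316 molecules they were 0.385 and 0% in isw2Δ, 2.41% (0.663 to 8.37%) and 0.332% in ies6Δ and 2.81% in wildtype. On reverse ARS316 molecules they were 0.769 and 0.641% in isw2Δ, 1.08 and 0.73% in ies6Δ and 6.41% in wildtype. Wildtype had the highest share in every set.

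Flank and centre of the same molecule were only loosely related. Spearman's rho between the methylation of the flank and that of the centre ranged between 0.152 and 0.493 over the libraries and strands of ARS313, and between 0.378 and 0.601 at ARS316. Between flank and plus side it ranged between 0.389 and 0.630 at ARS313 and between 0.351 and 0.567 at ARS316. For pairs of linkers in a flank, the phi coefficient of having a call ranged between 0.05 and 0.36 at ARS313, and between 0.09 and 0.49 at ARS316. These correlations run over the molecules of a library, which share its methylation reaction, and are descriptions without a test.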

How the data were processed

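Rings of 5 libraries were used, and a further wildtype library was not analysed here. Chromatin of 4 strains per genotype was ground separately and pooled before purification. A nucleosomal array and a naked plasmid were added before methylation. The authors called bases with Megalodon, guppy and minimap and set the thresholds for m6A and CpG methylation themselves. Per library, locus and strand, they deposited fractions of 0 or 1 for each read and position, without normalization. The build R64 is named in the submitters' processing notes. The thresholds could not be varied. The 60 tables held 43459 reads, and 1 incomplete read was left out.

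Forward and reverse means per position were added, and divided by the array mean of the library. A strand thus weighs by its number of called positions and not by its number of reads. Levels were averaged over windows of 30 bp, over arms, and over linkers (prominence of at least 0.2, at least 60 bp apart, 40 bp wide) and protected stretches (at least 50 bp below the arm median). Differences of log2 levels were tested with limma 3.58.1 in R 4.3.3 on all 5 libraries without covariates, with Benjamini-Hochberg adjustment over all rows of a table and a threshold of 0.05. This leaves 2 residual degrees of freedom, and the spread comes from the mutant pairs alone and is shared among windows of the same libraries, which are not independent. With 2 libraries set against 1, the smallest p of an exact permutation test is 0.333. Both flanks, all their segments and, per flank and mutant, the called window with the largest change in the same direction in both libraries were named, and further windows were chosen after their values were seen. The members and lists were chosen with earlier results of these data known.

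The oligonucleotides were placed by the pattern of forward and reverse calls, over at least 15 bases. Positions count from the first base of each ring, and chromosomal coordinates were not used here. Alternatives covered the naked plasmid, no normalization, the library median, single strands, a cap of 80 reads per strand, positions methylated in at least 5% of calls, other window sizes, limma with a trend, a replicate block and each mutant library left out. In simulated data with 30 of 152 windows changed in isw2Δ against wildtype, limma recovered 8.83% of log2 changes of 0.3, 68.5% of 0.5 and 100% of 1. The other simulated windows had no change, and noise was independent between windows. The real windows had a median change of 0.305 in isw2Δ and are not independent, so these rates do not describe the real test. Python 3.11.15, NumPy 2.4.6, SciPy 1.17.1 and Matplotlib 3.10.9 were used.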

Additional observations from a re-analysis of the deposited data

Results flagged for a closer look

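The change of the ARS316 flank differed from that of the minus-side flank of the early-efficient origin ARS305. The ratio of the 2 mean levels was 1.03 and 1.02 in isw2Δ, 1.05 and 1.04 in ies6Δ and 0.861 in wildtype. The ratio was higher by 0.258 on the log2 scale in isw2Δ (SE 0.0305, limma, adjusted p = 0.0116) and by 0.278 in ies6Δ (limma, adjusted p = 0.00907). The test was added after the data were seen, covers 5 overlapping ratios and has no wildtype replicate. The isw2Δ call was lost without isw2Δ replicate 1 (0.251) and without either ies6Δ library (0.258), and the ies6Δ call without ies6Δ replicate 1 (0.273) or 2 (0.283). ARS313 over ARS305 gave 0.27 and 0.33 (limma, adjusted p = 0.181 and 0.0714). Against the flank of the other early-efficient origin, ARS315, the ratio of ARS316 was 1.27 and 1.42 in isw2Δ, 1.19 and 1.24 in ies6Δ and 1.41 in wildtype, with differences of -0.06 and -0.21 that did not pass the test (limma, adjusted p = 0.616 and 0.0957).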

How the results depend on the processing

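The flank means stayed positive against wildtype in every alternative, but with the library median only 16 of the 27 inner windows were positive in isw2Δ and 15 in ies6Δ, against 26 and 22, and 4 of the 10 segments were negative in isw2Δ and 5 in ies6Δ, none of them called. Of the 27 inner windows, 59.3% were called in isw2Δ and 29.6% in ies6Δ, and of the 10 segments 60% and 30%. In wildtype, the naked plasmid held 1000 forward and only 52 reverse reads, against 780 and 780 in each mutant library. The shares of called windows and segments moved with the scale. With no normalization they were 100% and 74.1% of windows and 100% and 80% of segments, with the naked plasmid 0% of windows and 0% of segments in ies6Δ and 100% of segments in isw2Δ, and with the library median, added after the data were seen, 0% and 3.7% of windows and 0% and 0% of segments. With forward reads only they were 14.8% and 7.41% of windows and 0% and 0% of segments, with reverse reads only 30% of segments in isw2Δ, and with at most 80 reads per strand 7.41% and 0% of windows and 0% and 0% of segments. Between the mutants, 2.5% of windows of 20 bp, 3.7% of windows without normalization and 10% of segments with the naked plasmid or with no normalization were called. Flank means of ARS313 in isw2Δ (0.34) lost the call with 80 reads (0.27), forward reads (0.49), reverse reads (0.24) and the library median (0.032), and those of ARS316 (0.33) with 80 reads (0.41), forward reads (0.15) and the library median (0.022). In ies6Δ, a call was gained at ARS313 with no normalization (0.72) and positions methylated in at least 5% (0.37), and at ARS316 with no normalization (0.67). Between the mutants, ARS316 gained one with the naked plasmid (0.40) and with no normalization (0.45). The ratio of the ARS313 flank to its centre in isw2Δ (-0.44) lost its call with 80 reads (-0.38) and forward reads (-0.30). ARS316 over ARS305 lost its call in isw2Δ with 80 reads (0.11), forward reads (0.21) and reverse reads (0.31), and in ies6Δ with 80 reads (0.13) and forward reads (0.21). The linker of ARS316 at 125 turned to 0.42 in ies6Δ with no normalization, against -0.05. The cause of these changes was not tested.

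Replicate numbers did not count as pairs. The deviations of same-numbered libraries correlated at 0.113 over the 152 windows and at 0.272 over the 27 inner flank windows, with only 2 pairs. With the replicate block, 18.5% of windows were called in ies6Δ and 20% of segments in isw2Δ. ARS313 in isw2Δ lost its call (0.27), as did its ratio to the centre in isw2Δ (-0.49) and ies6Δ (-0.65), and ARS313 over ARS305 gained one in isw2Δ (0.20) and ies6Δ (0.26), as did ARS313 over ARS315 in ies6Δ (-0.17). It changed no other call among the flank means and ratios.

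With single mutant libraries left out, called windows ranged between 29.6 and 59.3% in isw2Δ and 11.1 and 33.3% in ies6Δ, and segments between 20 and 40% and between 0 and 30%. The ARS313 flank mean ranged between 0.29 and 0.38 in isw2Δ and between 0.17 and 0.35 in ies6Δ, and that of ARS316 between 0.29 and 0.36 in isw2Δ and between 0.17 and 0.24 in ies6Δ. The ARS313 ratio to the centre ranged between -0.47 and -0.40 in isw2Δ and -0.74 and -0.46 in ies6Δ. ARS313 over ARS305 ranged between 0.18 and 0.35 in isw2Δ and 0.27 and 0.39 in ies6Δ, ARS316 over ARS305 between 0.25 and 0.27 in isw2Δ and 0.27 and 0.28 in ies6Δ, and ARS316 over ARS315 between -0.24 and -0.18 in ies6Δ. Where a genotype is left with 1 library, that library is assumed to vary like the others. ARS316 in ies6Δ replicate 1 had only 83 and 93 reads.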

Other observations

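In the protected stretch of ARS313 (788 to 871), at least 1 methylated call was found on 70.4 and 62.9% of forward molecules in isw2Δ, on 55.8 and 44.6% in ies6Δ and on 37.1% in wildtype (Wilson 95% interval 33 to 41.5%). On reverse molecules the shares were 78.7 and 72.9% in isw2Δ, 68.6 and 60.8% in ies6Δ and 51.6% in wildtype (47.2 to 56.0%). C or G positions that no enzyme should mark were called at 1.69 and 3.30% in isw2Δ, 2.14 and 1.97% in ies6Δ and 2.90% in wildtype at placed bases of the flank, so an unknown part of these molecules carries only false calls, and the shares are no count of open molecules. The stretch is longer than a linker of 40 bp, so its shares cannot be set against those of linkers, and they are not normalized.

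In the linker of ARS316 next to the NFR (509 to 548), wildtype differed between the strands. Forward molecules with a call made up 68.5 and 70.3% in isw2Δ, 60.2 and 59.1% in ies6Δ and 46.0% in wildtype (42.6 to 49.5%). Reverse molecules with a call made up 71.4 and 64.4% in isw2Δ, 58.1 and 50% in ies6Δ and 31.8% in wildtype (28.6 to 35.1%). The strands report different bases, and the part of this in the difference was not tested.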
